A study of Homo sapiens with 20 samples.

Results

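Raji cells given a BET inhibitor for 4 h were compared with Raji cells given the inactive form of the same compound for 4 h. The comparison used 4 of the 20 arrays of the study, chosen by the sample titles: 2 with the inhibitor and 2 with the inactive form. All 22011 probe sets of the array were kept. Raji is an established cell line from a Burkitt lymphoma, a cancer of B cells. The inactive form is the enantiomer (mirror image) of the inhibitor, and both were given at 500 nM; the labels do not name the compound. Arrays of untreated Raji cells (0 h), of Raji cells after 8 h with either compound, and of LP-1 cells after 4 h with either compound served as references. LP-1, which comes from multiple myeloma (a plasma cell cancer), is likewise an established line and received the same dose. Each of these groups held 2 arrays, which the submitters call biological replicates. All groups used here were cultured in medium with serum and antibiotics, and the labels name no engineered allele in either line. A single line stands for each cancer, and no vehicle group at 4 h was analysed here, so that time in culture and the inactive compound cannot be told apart in comparisons with untreated cells.

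BET proteins carry bromodomains, which bind acetylated lysines of histones, and they help to bring the elongation kinase P-TEFb to genes. P-TEFb releases RNA polymerase II from its pause near the start of a gene, and HEXIM1 holds the kinase in an inactive store. In Burkitt lymphoma a translocation places the MYC oncogene beside an immunoglobulin locus, and BET inhibitors are known for lowering MYC RNA in many blood cancer lines.

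Expression is given as deposited, in log2 units per transcript-level probe set, so that a difference of 1 unit is a doubling. The medians of the 20 arrays lay between 5.13 and 5.39, and Pearson's r between replicate arrays was 0.973 to 0.989 across probe sets, which are not independent of each other. In the comparison, r was 0.985 for the inhibitor pair and 0.977 for the inactive pair. Inactive replicate 1 had the lowest median of all arrays (5.13) and the lowest 75th percentile (6.75, against 6.85 to 7.04 for the other Raji arrays). All 12 measured B cell markers of 13 listed lay above the 75th percentile of their array, and none was called changed. The 10 T and NK cell markers, the 7 myeloid markers and the 3 erythroid markers each had 0 members above that percentile. Of the 10 epithelial and fibroblast markers 1 was above it. Averaged over its list, the T and NK cell level was 3.30 and 3.30 with the inactive form and 3.23 to 3.31 with the inhibitor. The myeloid level was 3.23 to 3.46 and 3.39 to 3.43, the epithelial and fibroblast level 4.21 to 4.27 and 4.06 to 4.19, and the erythroid level 3.49 to 3.54 and 3.28 to 3.37. No member of these 4 lists was called changed. With 2 arrays per group, precision is limited by their number.

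With the inhibitor 391 of 22011 probe sets (1.78%) were called changed by limma at an adjusted p under 0.05, of which 316 (1.44%) were higher and 75 (0.341%) were lower. Rises were therefore 80.8% of the calls. That share was 61.2% after quantile normalization of the arrays (278 higher, 176 lower) and 65.8% without inactive replicate 1 (73 higher, 38 lower). The median difference over all probe sets was 0.01. The median called rise was 0.90 (1.86-fold) and the median called fall was -0.97 (1.95-fold), and 117 rises and 36 falls passed 2-fold. Of the 391 probe sets, 322 carried 1 gene symbol, 40 carried several and 29 none. In whole-cell RNA, a smaller number of cells of one kind and less RNA per cell cannot be told apart.

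The size of the count rested on single arrays and on the other groups in the fit. Without inhibitor replicate 1 it was 116, without inhibitor replicate 2 it was 27, without inactive replicate 1 it was 111 and without inactive replicate 2 it was 154. Fitted on the Raji arrays alone, 49 probe sets were called, and 47 of these were among the 391. Fitted on the 4 arrays alone, 0 were called by limma, with 2481 at an unadjusted p under 0.05 against 3107 with all arrays. None of the 391 changed direction. On the Raji arrays alone and on the 4 arrays alone they could not, because the difference of means is the same there. Without 1 array, a probe set whose inhibitor and inactive arrays do not overlap cannot change direction either. Of 54 named genes called in the comparison, 11 kept the call without each of the 4 arrays in turn: HEXIM1, SLFN5, SESN3, SLC15A2, CSRNP2 and CLEC4A among the rises, and MYC, CD180, TLR10, PRDM10 and PRDM1 among the falls. Of these 11, PRDM1 lost the call on the Raji arrays alone (adjusted p = 0.0591). The other 43 lost it without at least 1 array, which is stated for each gene group below.

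**Figure D1:**
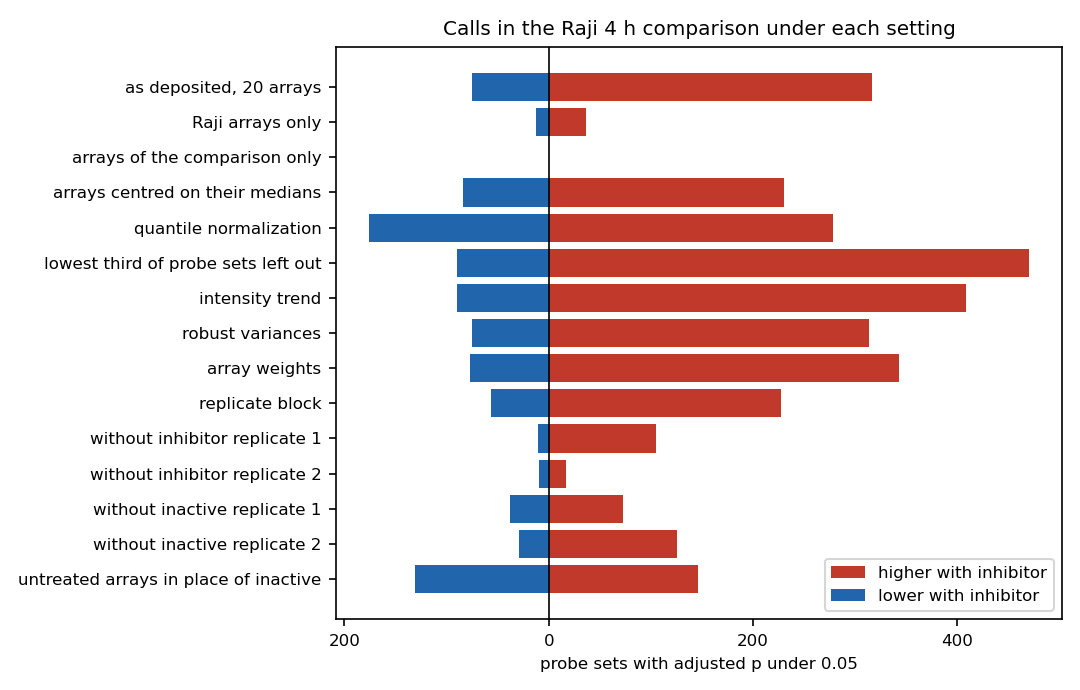
Number of probe sets with an adjusted p under 0.05 in the Raji 4 h comparison under each setting. Bars to the right count probe sets higher with the inhibitor (316 as deposited) and bars to the left those lower (75 as deposited); the shortest pair of bars among those with calls belongs to the fit without inhibitor replicate 2 (17 higher, 10 lower).

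Untreated cells at 0 h give a second set of arrays to place beside the called probe sets. The same 2 inhibitor arrays chose those probe sets, so the next shares follow in part from that choice and are a description. Both inhibitor arrays lay above both untreated arrays for 300 of the 316 rises (94.9%), against 21.5% of all probe sets, and below them for 74 of the 75 falls (98.7%), against 27.2% of all probe sets. The inactive form itself gave 0 calls over untreated cells with limma (0% of 22011), with 1741 probe sets at an unadjusted p under 0.05. The probe sets that rose with the inhibitor had a median of -0.22 for inactive over untreated, against -0.04 over all probe sets and -0.03 for those that fell. The part of this offset in the rises was not tested. With untreated arrays in place of the inactive ones, a comparison added after seeing the data, 277 probe sets were called, 146 higher and 131 lower.

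MYC, the transcription factor that drives growth in Burkitt lymphoma, was at 8.36 and 8.42 with the inactive form and at 6.97 and 7.0 with the inhibitor. Untreated cells were at 8.35 and 8.59, so the inhibitor arrays lay apart from all other Raji arrays at 0 and 4 h. MYC fell by 1.40 on the log2 scale (SE 0.16, n = 2 arrays per group), a 2.65-fold drop (limma, adjusted p = 0.00129). The 95% interval of the difference ran from -1.74 to -1.07. It kept the call without each array in turn (highest adjusted p = 0.0188) and on the Raji arrays alone (adjusted p = 0.0281). Of the 12 measured genes of the MYC network, the partners and rivals of MYC for binding MAX, 1 fell, none rose and the median was -0.09, against 0.00099 over all 14232 genes measured, of which 1.78% rose and 0.471% fell. The range of a list's median over 6 alternatives (centring, quantile normalization and leaving out each of the 4 arrays) is given in brackets from here on, and for this list it was -0.16 to -0.02. Of the 27 lists, 24 had a median that moved by over 1.5 times or changed sign in at least 1 of these alternatives. MXD1, a repressor that competes with MYC for MAX, differed by 0.66 (adjusted p = 0.24), and MYCN by -0.58 (adjusted p = 0.26). A second MYCN probe set gave 0.27.

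Genes that MYC is known to activate for cell growth did not pass the test at 4 h. None of 32 measured members was called, and the median was -0.17 (-0.28 to -0.11). Both inhibitor arrays lay below both inactive arrays for 16 of the 32 and above them for 3, against 20.2% and 23.5% of all probe sets. MRTO4, a ribosome assembly factor, was at 9.0 and 9.53 with the inactive form and at 8.64 and 8.65 with the inhibitor (difference -0.62 ± 0.22 SE, adjusted p = 0.213). PPRC1, a coactivator of nuclear genes for mitochondria, differed by -0.44 (adjusted p = 0.125), and hexokinase 2 (HK2) by -0.43 (adjusted p = 0.248). After 8 h, 3 of the 32 were called lower and the median was -0.37.

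HEXIM1, the inhibitor of P-TEFb, was at 6.35 and 6.13 with the inactive form and at 8.18 and 8.16 with the inhibitor, with untreated cells at 6.36 and 6.41. No other gene had a smaller p among those named: it rose by 1.93 ± 0.14 (SE), 3.82-fold (limma, adjusted p = 0.000101). The highest adjusted p on leaving out 1 array was 0.00427. Of the 18 measured BET and P-TEFb genes 3 rose, none fell and the median was 0.19 (0.08 to 0.29). The median of this list for inactive over untreated was -0.14, against -0.06 over all genes measured. Its part in the 0.19 was not tested. Cyclin T1 (CCNT1), the regulatory subunit of P-TEFb, went from 8.54 and 8.49 to 9.31 and 9.39, a rise of 0.84 ± 0.17 (adjusted p = 0.0315). Untreated cells were at 8.87 and 8.59 for CCNT1, above the inactive form. BRD2, a BET protein, went from 9.37 and 9.55 to 9.92 and 9.98, a rise of 0.49 ± 0.11 (adjusted p = 0.0484). Both inhibitor arrays were above both inactive arrays for each of these called genes, and for 23.5% of all probe sets. That order follows in part from the call and is a description. CCNT1 and BRD2 lost the call without any 1 of the 4 arrays, with rises of 0.80 to 0.88 and of 0.40 to 0.58. BRD3 differed by 0.12 (adjusted p = 0.799) and HEXIM2 by 0.03 (adjusted p = 0.974). 

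The genes with the largest rises and falls came next, and the promoters of 5 of them and of HEXIM1 are printed for their shared or missing motifs. CHRNA6, whose fall lay between those of PTAFR and CD180 in size, is not printed. Each sequence covers the 150 bases before the annotated start, from 5′ to 3′ on the gene's strand, from RefSeq on GRCh38.p14, while the expression values were made on hg19. Capitals mark matches on either strand to TATAAA (the core of a TATA box), ATTTGCAT (the octamer), CCAAT (shown as ATTGG where it lies on the other strand) and CACGTG (the E-box that MYC and MAX bind). PTAFR has 2 annotated starts and the one farthest upstream is shown.
OR2B6, chr6:27957091-27957240, plus strand: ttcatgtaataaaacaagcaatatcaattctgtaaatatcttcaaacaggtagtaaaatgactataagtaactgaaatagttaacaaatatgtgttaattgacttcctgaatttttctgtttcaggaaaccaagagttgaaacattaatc
ZNF627, chr19:11597333-11597482, plus strand: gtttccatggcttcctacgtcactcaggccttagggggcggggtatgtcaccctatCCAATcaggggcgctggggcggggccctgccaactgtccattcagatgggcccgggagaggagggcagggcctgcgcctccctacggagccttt
H2BC11, chr6:27132796-27132945, minus strand: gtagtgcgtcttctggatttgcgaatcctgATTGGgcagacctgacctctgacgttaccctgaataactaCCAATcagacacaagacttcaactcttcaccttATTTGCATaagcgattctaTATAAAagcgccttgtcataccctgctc
HEXIM1, chr17:45148325-45148474, plus strand: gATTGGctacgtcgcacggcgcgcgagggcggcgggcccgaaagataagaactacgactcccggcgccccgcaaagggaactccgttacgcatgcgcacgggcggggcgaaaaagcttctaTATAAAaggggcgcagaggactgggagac
PTAFR, chr1:28193857-28194006, minus strand: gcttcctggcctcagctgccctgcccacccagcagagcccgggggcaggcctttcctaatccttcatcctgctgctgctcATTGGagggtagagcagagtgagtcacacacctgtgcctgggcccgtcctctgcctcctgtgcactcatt
CD180, chr5:67196800-67196949, minus strand: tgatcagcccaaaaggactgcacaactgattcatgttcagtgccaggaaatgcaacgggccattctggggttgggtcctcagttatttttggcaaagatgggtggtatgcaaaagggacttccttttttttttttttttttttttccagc
In H2BC11 and HEXIM1 the TATA box core begins 28 and 29 bases before the start. H2BC11 also holds the octamer, 47 bases before the start, and CCAAT at 80 and, on the other strand, at 120. Within 250 bases before the start, TATAAA stands in 11.2% of the 27305 promoters of the table, in 13 of the 211 matched to genes that rose (6.16%) and in 6 of the 52 matched to genes that fell (11.5%). The octamer ATTTGCAT stands in 1.67% of all, in 0.948% of those that rose and in 1.92% of those that fell. CACGTG stands in 6.46% of all promoters, in 12.3% of those that rose and in 9.62% of those that fell. CCAAT stands in 33% of all, in 41.7% of those that rose and in 23.1% of those that fell. The 27305 promoters are not limited to the 14232 genes measured, so the shares of all promoters are not a matched background. These shares describe letters and were not tested.

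The 15 largest called rises spanned 3.27-fold to 8.18-fold. OR2B6, an olfactory receptor gene, was at 2.58 and 1.58 with the inactive form and at 4.80 and 5.41 with the inhibitor, while untreated cells were at 3.30 and 2.55. The inhibitor arrays lay above all the others, and the rise was 3.03 ± 0.51 (limma, adjusted p = 0.0124). ZNF627, a zinc finger gene, went from 2.44 and 3.26 to 4.91 and 5.69, a rise of 2.46 ± 0.36 (adjusted p = 0.00661). Its untreated arrays, at 4.95 and 4.39, overlapped the inhibitor arrays, and it was the 1 gene of the 15 for which they did. H2BC11, a replication-dependent histone H2B gene, went from 3.91 and 3.31 to 5.83 and 5.97, a rise of 2.29 ± 0.32 (adjusted p = 0.00573), with untreated cells at 3.74 and 3.87. The call for H2BC11 was lost without inhibitor replicate 2 (adjusted p = 0.0739), for OR2B6 without that array (0.139) or inactive replicate 2 (0.0831), and for ZNF627 without that array (0.0913) or inactive replicate 1 (0.0567).

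SLFN5, a member of the interferon-inducible Schlafen family, went from 3.60 and 3.83 to 5.73 and 5.85, a rise of 2.08 ± 0.21 (limma, adjusted p = 0.000878). Both inhibitor arrays were above the untreated arrays at 3.92 and 4.25. SESN3, a sestrin that restrains the growth kinase complex mTORC1, went from 6.56 and 6.52 to 8.34 and 8.46, a rise of 1.86 ± 0.16 (adjusted p = 0.000368). Untreated cells were at 6.60 and 6.46 for SESN3, level with the inactive form. SLC15A2, a transporter of small peptides, rose by 1.78 ± 0.19 (adjusted p = 0.00102), CSRNP2, a nuclear protein, by 1.72 ± 0.20 (adjusted p = 0.00196) and CLEC4A, an inhibitory lectin receptor, by 1.71 ± 0.19 (adjusted p = 0.00129). These 5 genes were still called whichever of the 4 arrays was omitted.

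The remaining leading rises were in genes for which the inactive arrays mostly lay low. ERP27, which binds a protein disulfide isomerase of the endoplasmic reticulum, rose by 2.11 ± 0.32 and LSMEM1, a membrane protein, by 1.90 ± 0.31. WDR47, a WD-repeat protein, rose by 1.78 ± 0.27. Genes typed to other tissues were among them: TAS2R19, a bitter taste receptor, rose by 2.17 ± 0.47, and AMBN, which encodes the enamel protein ameloblastin, by 1.88 ± 0.34. GPR21, an orphan receptor, rose by 1.71 ± 0.35. The inactive arrays of TAS2R19 were themselves far apart, at 4.26 and 2.62, and its inhibitor arrays were at 5.84 and 5.36 (limma, adjusted p = 0.0375). In the mean of the inactive arrays, 9 of the 15 leading rises lay below the 25th percentile of all probe sets. Of all 316 rises 30 did (9.49%), and of all probe sets 24.9%. The inactive arrays also enter the difference that ranked these genes, so the count of 9 follows in part from that ranking. All 6 genes of this paragraph lost the call without at least 1 array, among them inhibitor replicate 2 for each (adjusted p 0.0952 for ERP27, 0.111 for LSMEM1, 0.0751 for WDR47, 0.166 for TAS2R19, 0.0717 for AMBN and 0.181 for GPR21).

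**Figure D2:**
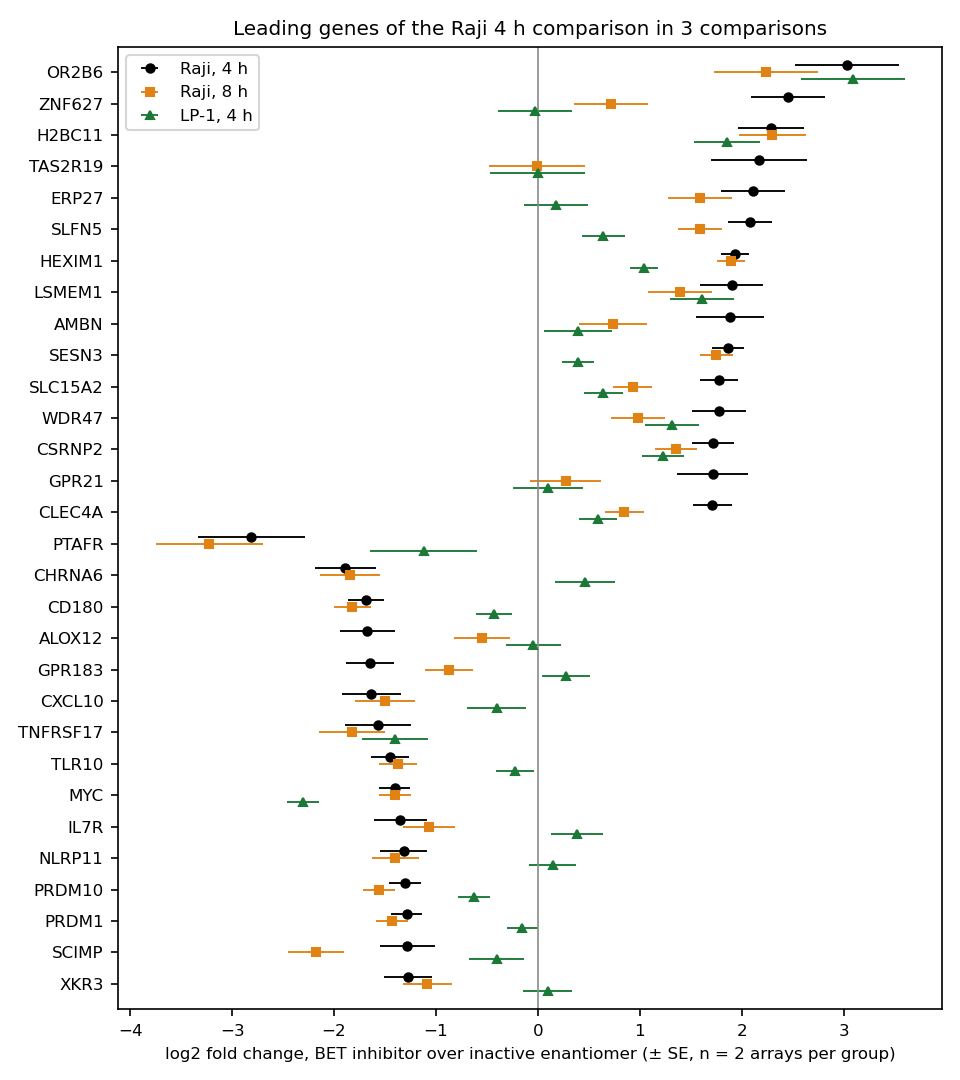
Difference between inhibitor and inactive form (log2 fold change, horizontal axis) for the 15 largest called rises and the 15 largest called falls of the Raji 4 h comparison, with the same genes in Raji at 8 h and in LP-1 at 4 h. Points are differences of means of 2 arrays and bars are standard errors; OR2B6 stands highest at 3.03 and PTAFR lowest at -2.81 in Raji at 4 h.

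The 15 largest falls spanned 2.42-fold to 7.02-fold. PTAFR, the receptor for platelet-activating factor, was at 8.26 and 7.86 with the inactive form and at 5.50 and 5.0 with the inhibitor, against 7.58 and 8.00 in untreated cells. The inhibitor arrays lay far below the other arrays, and PTAFR fell by 2.81 (SE 0.52; limma, adjusted p = 0.0196). CD180, a B cell surface protein related to the Toll-like receptors, went from 8.02 and 8.16 to 6.31 and 6.50, with untreated cells at 8.40 and 8.42. CD180 fell by 1.69 (SE 0.18, adjusted p = 0.00102). TLR10, a Toll-like receptor found on B cells, went from 8.48 and 8.87 to 7.16 and 7.28 and fell by 1.45 (SE 0.19, adjusted p = 0.00362). Without any 1 array PTAFR lost the call (adjusted p 0.0664 to 0.199), while CD180 and TLR10 kept it.

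Of the 20 measured genes of Toll-like receptors, CD180 and their adaptors, 3 fell (CD180, TLR10 and TLR1), none rose and the median was -0.13 (-0.17 to -0.07). TLR1 went from 5.71 and 5.83 to 4.77 and 5.22 and fell by 0.78 (SE 0.17, limma, adjusted p = 0.042), a call that was lost without any 1 array (adjusted p 0.0751 to 0.242). TLR1 is the next measured gene to TLR10 on chromosome 4, and TLR6, which shares that cluster, differed by -0.58 (adjusted p = 0.63). LY86, the partner protein of CD180, differed by 0.57 (adjusted p = 0.388), and TLR7 by -0.73 (adjusted p = 0.152). SCIMP, an adaptor of Toll-like receptors outside the list, went from 5.37 and 4.73 to 3.82 and 3.72 and fell by 1.28 (SE 0.27, adjusted p = 0.0362). Its untreated arrays stood higher still, at 5.88 and 5.77, and its call was lost without either inhibitor array or inactive replicate 1 (adjusted p up to 0.255).

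Of 33 measured chemotactic receptors and RGS genes 3 fell (GPR183, PTAFR and S1PR1), 1 rose (RGS2) and the median was -0.18 (-0.22 to -0.13). GPR183, an oxysterol receptor that positions B cells in lymphoid tissue, went from 5.13 and 4.58 to 3.23 and 3.20 and fell by 1.64 (SE 0.24, limma, adjusted p = 0.00573). S1PR1, the sphingosine phosphate receptor for exit from lymph nodes, went from 4.42 and 3.54 to 2.81 and 2.71 and fell by 1.22 (SE 0.26, adjusted p = 0.0366). RGS2, which damps G protein signals, went from 5.74 and 6.46 to 6.94 and 7.05, a rise of 0.90 (adjusted p = 0.0448). Without inactive replicate 1 or without inhibitor replicate 2 the list had 0 calls in either direction.

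CXCL10, a chemokine, went from 4.79 and 5.10 to 3.11 and 3.51, against 4.70 and 4.10 in untreated cells, and fell by 1.63 (SE 0.29, limma, adjusted p = 0.0149). It was the 1 called gene of 27 measured chemokines, cytokines and NF-kB targets, whose median was -0.09 (-0.20 to 0.02). NFKBIA, the inhibitor of NF-kB, differed by 0.62 (adjusted p = 0.0836) and lymphotoxin beta (LTB) by -0.76 (adjusted p = 0.0949). Among 28 interferon-stimulated genes 1 rose, IRF9, by 0.63 (adjusted p = 0.0296), and the median was -0.01 (-0.05 to -0.01). CXCL10 and IRF9 lost their calls without any 1 array. IFIT3 differed by -1.0, with inactive arrays at 4.20 and 3.34 (adjusted p = 0.339). Of the Schlafen family 2 genes were measured, SLFN5 and SLFN12, and SLFN12 differed by 0.14 (adjusted p = 0.875).

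Transcription factors of B cell identity fell in 3 of 24 measured cases, with none higher and a median of -0.12 (-0.25 to -0.14). PRDM1 (Blimp-1), a factor that drives B cells to become plasma cells, was at 6.41 and 6.74 with the inactive form and at 5.14 and 5.44 with the inhibitor. Untreated cells stood between them at 5.93 and 5.93, and PRDM1 fell by 1.29 against the inactive form (SE 0.15, limma, adjusted p = 0.00205). MYB, a regulator of blood progenitors, went from 7.63 and 7.77 to 6.47 and 6.89 and fell by 1.02 (SE 0.19, adjusted p = 0.0189). IKZF1 (Ikaros), which is needed to form lymphocytes, fell by 0.76 (SE 0.16, adjusted p = 0.0299). PRDM1 kept its call without each array, and MYB (adjusted p 0.0682 to 0.131) and IKZF1 (0.0623 to 0.229) lost it without any 1 array. PRDM10, a relative of PRDM1 in the same protein family, fell by 1.30 (SE 0.16, adjusted p = 0.00205) and kept its call.

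The plasma cell gene TNFRSF17 (BCMA, a receptor for B cell survival factors) went from 4.14 and 5.04 to 2.54 and 3.50. Replicates of both groups were far apart, and TNFRSF17 fell by 1.57 (SE 0.32, limma, adjusted p = 0.0316). With PRDM1 it made 2 falls among 8 plasma cell markers, whose median difference was -0.20. The other markers were not called and went both ways: SDC1 differed by 0.23, CCR10 by 0.50 and XBP1 by 0.03. IRF4 differed by -0.12, FKBP11 by -0.29 and SLAMF7 by -0.54. With TNFRSF17 and PRDM1 included, the list's mean was 5.62 to 5.90 with the inactive form and 5.29 to 5.47 with the inhibitor. IL7R, the receptor for interleukin 7, fell by 1.35 (SE 0.26, adjusted p = 0.0225). NLRP11, a member of the NLR family, went from 5.37 and 5.73 to 4.07 and 4.40 and fell by 1.32 (SE 0.23, adjusted p = 0.0147), with untreated cells higher than both at 6.21 and 6.21. TNFRSF17 lost the call without inhibitor replicate 1 (adjusted p = 0.182) or inactive replicate 2 (0.165). IL7R and NLRP11 lost it without each array except inactive replicate 1 (0.0325 and 0.0435).

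Of the other leading falls, CHRNA6, a nicotinic receptor subunit, fell by 1.89 (SE 0.30, limma, adjusted p = 0.00913), ALOX12, a lipoxygenase, by 1.67 (SE 0.27, adjusted p = 0.0107) and XKR3, an XK-related gene, by 1.28 (SE 0.24, adjusted p = 0.0195). All 15 leading falls had both inhibitor arrays below both untreated arrays, as did 74 of the 75 called falls. Of all probe sets 27.2% did. The same inhibitor arrays chose these genes, so the count follows in part from that choice. None of the 15 lay below the 25th percentile in the inactive arrays, against 2 of the 75 called falls (2.67%) and 24.9% of all probe sets. This too follows in part from the choice, because the inactive arrays enter the difference. CHRNA6 and ALOX12 kept the call only without inactive replicate 2 among the 4 omissions, and XKR3 in none of them.

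B cell receptor signalling genes gave 1 call among 29 measured, with a median of -0.09 (-0.14 to 0.05). BLNK, the linker that joins the receptor to its kinases, went from 8.97 and 8.91 to 8.13 and 8.13, against 9.04 and 8.97 untreated. The pairs of arrays were close and clearly apart, and BLNK fell by 0.81 (SE 0.17, limma, adjusted p = 0.0304). RASGRP3, which activates Ras downstream of the receptor, differed by -0.66 (adjusted p = 0.172). Of 7 HLA class II genes 1 fell and the median was -0.14 (-0.29 to 0.06). It was CIITA, the master activator of the class, which went from 6.89 and 6.89 to 6.39 and 6.39 and fell by 0.50 (SE 0.10, adjusted p = 0.0314). HLA-DPB1 differed by -0.34 (adjusted p = 0.507). BLNK and CIITA lost their calls without any 1 array (adjusted p up to 0.21 and 0.22).

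**Figure D3:**
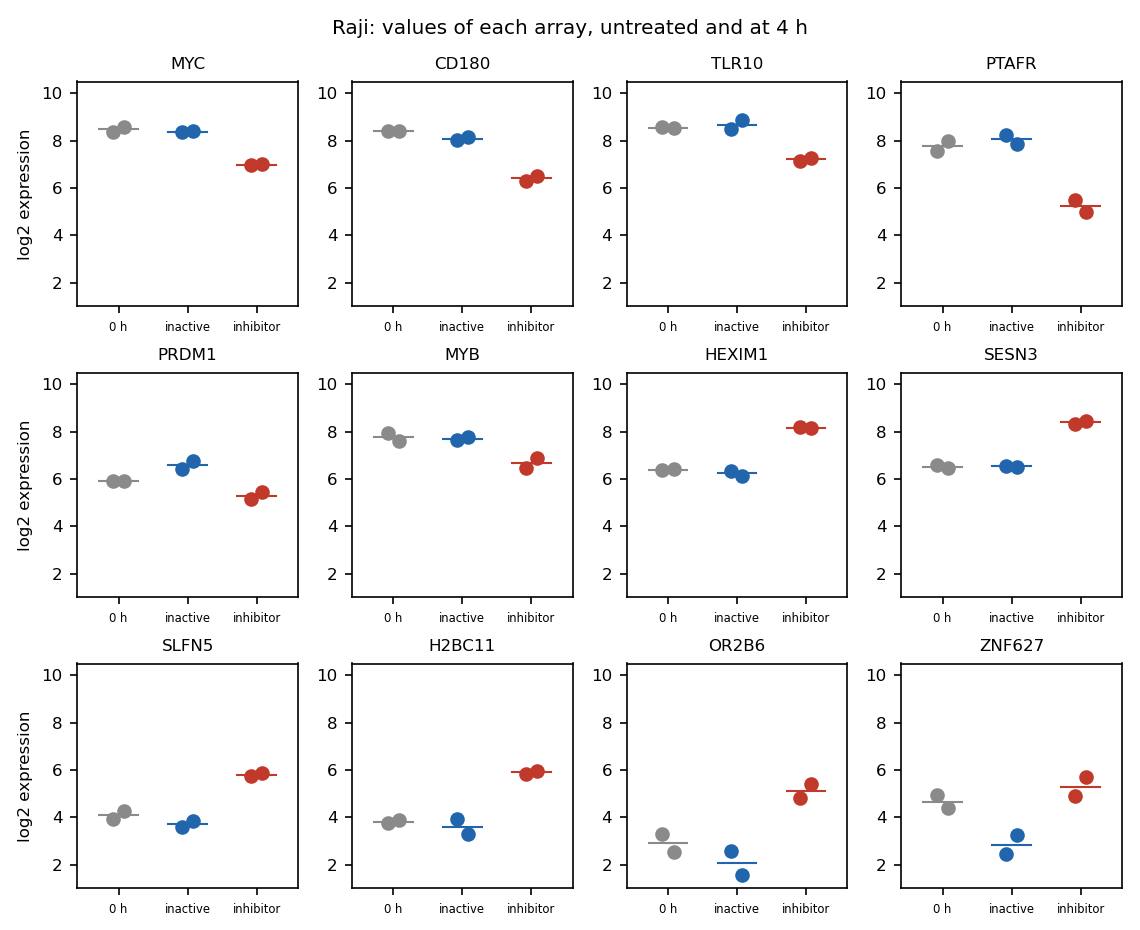
Expression of 12 genes on each Raji array (vertical axis, log2 units): untreated at 0 h (grey), inactive form at 4 h (blue) and inhibitor at 4 h (red). Points are single arrays and lines are means of 2; the inhibitor arrays lie apart from both other groups for each gene drawn except ZNF627, whose untreated arrays at 4.95 and 4.39 overlap them.

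TXNIP, which limits glucose uptake, went from 8.34 and 8.76 to 9.69 and 9.87, a rise of 1.23 ± 0.16 (limma, adjusted p = 0.00399), with untreated cells at 8.37 and 8.48. Its relative ARRDC3 went from 6.50 and 6.88 to 7.56 and 7.87, a rise of 1.02 ± 0.16 (adjusted p = 0.00939). Both were the called genes of 5 measured in the TXNIP and arrestin-domain family, whose median was 0.57 (0.08 to 1.06). The family's median for inactive over untreated was -0.31, and its part in the 0.57 was not tested. ARRDC4 differed by 0.57 (adjusted p = 0.396), with inhibitor arrays at 5.51 and 5.40 and untreated cells at 5.41 and 5.59. TOB1, an antiproliferative partner of mRNA decay, rose by 1.14 ± 0.14 (adjusted p = 0.00297), 1 of 16 measured CDK inhibitors and BTG/TOB genes, whose median was 0.09 (0.04 to 0.24). CDKN1B (p27) differed by 0.84 (adjusted p = 0.0751), with inhibitor arrays at 5.68 and 6.52. SESN3 was the 1 call of 12 brakes on mTORC1, with a median of 0.09 (0.0028 to 0.22), and SESN1 differed by 0.98 (adjusted p = 0.0817). For inactive over untreated the median was -0.14 in the list of CDK inhibitors and BTG/TOB genes and -0.20 in the mTORC1 list. The part of these offsets in the list medians was not tested. SAT1, which breaks down polyamines, went from 7.43 and 7.72 to 8.72 and 9.02, a rise of 1.30 ± 0.17 (adjusted p = 0.00399), 1 of 13 polyamine genes with a median of 0.15 (-0.05 to 0.24). TXNIP, TOB1 and SAT1 lost the call without inhibitor replicate 2 (adjusted p 0.0682, 0.0532 and 0.0682), and ARRDC3 without that array (0.12) or inactive replicate 1 (0.0727).

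Clustered histone genes gave 2 rises and no fall among 46 measured, with a median of 0.34 (0.25 to 0.44), and both inhibitor arrays were above both inactive arrays for 23 of the 46, against 23.5% of all probe sets. Beside H2BC11, the histone H2A gene H2AC6 went from 8.77 and 8.80 to 9.58 and 9.72, a rise of 0.87 ± 0.14 (limma, adjusted p = 0.0117). Untreated cells, at 9.52 and 9.70, were level with the inhibitor for H2AC6. The median of the list for inactive over untreated was -0.40, so that the inactive arrays lay below the untreated ones too; its part in the list's median was not tested. H3C8 differed by 0.85 (adjusted p = 0.0583). Clustered histone genes resemble each other, and probe sets may share signal between them. H2AC6 lost the call without any array except inhibitor replicate 1 (adjusted p 0.0528 to 0.132).

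Of 19 sterol synthesis genes 2 rose, none fell and the median was 0.37 (0.23 to 0.57). Both inhibitor arrays were above both inactive arrays for 13 of the 19, against 23.5% of all probe sets. INSIG1, the brake on sterol sensing, went from 6.39 and 6.69 to 7.41 and 7.73, a rise of 1.03 ± 0.17 (limma, adjusted p = 0.0127), with untreated cells at 7.27 and 7.32. IDI1, an isomerase of the pathway, rose by 0.92 ± 0.18 (adjusted p = 0.024). For inactive over untreated the median of the list was -0.38, and its part in the list's median was not tested. Of 28 lysosome and autophagy genes 3 rose, none fell and the median was 0.30 (0.20 to 0.40). They were NPC1, which exports cholesterol from lysosomes (0.90 ± 0.16, adjusted p = 0.0149), the sialidase NEU1 (1.06 ± 0.20, adjusted p = 0.0198) and the autophagosome protein MAP1LC3B (0.82 ± 0.17, adjusted p = 0.0366). NEU1 stood at 5.29 and 5.45 with the inactive form and at 6.43 and 6.44 with the inhibitor, above untreated cells at 5.77 and 5.2. The median of the lysosome list for inactive over untreated was -0.15, and its part in the 0.30 was not tested. Without inactive replicate 1, or without inhibitor replicate 2, neither list had a call, and the lysosome list had none without inactive replicate 2 either.

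Of 26 genes of the endoplasmic reticulum and unfolded protein response 2 rose, none fell and the median was 0.23 (0.12 to 0.31). Their median for inactive over untreated was -0.22, and its part in the 0.23 was not tested. ERO1B, an oxidase that drives disulfide bonds, went from 4.91 and 4.80 to 5.80 and 6.08, a rise of 1.08 ± 0.18 (limma, adjusted p = 0.0109), and ERP27 was the other. DNAJC3, a chaperone of that pathway, differed by 0.68 (adjusted p = 0.0725). At 8 h the median of the list was -0.25, with 1 member called higher and 2 lower. The list had 0 calls without inactive replicate 2 or inhibitor replicate 2.

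Of 30 G1/S and replication genes 1 rose and the median was 0.16 (0.02 to 0.26): cyclin E1 (CCNE1), which drives entry into S phase, went from 5.26 and 5.41 to 6.03 and 6.16, a rise of 0.76 ± 0.17 (limma, adjusted p = 0.0474), lost without any 1 array. E2F3 differed by 0.52 and CDK2 by 0.66, both with adjusted p = 0.0517. None of 24 G2/M genes was called (median 0.11, -0.0024 to 0.22) and none of 15 BCL2 family genes (median 0.01, -0.13 to 0.03). BCL2L1, a survival factor, differed by -0.52 (adjusted p = 0.199). None of 31 cytosolic ribosomal protein genes was called either, with a median of 0.02 (-0.11 to 0.13). Among 25 immediate early genes EGR1, a growth-responsive transcription factor, was the 1 call. It went from 6.16 and 6.59 to 7.37 and 7.38, a rise of 1.00 ± 0.17 (adjusted p = 0.0127), in a list whose median was -0.01 (-0.08 to 0.04). EGR1 kept the call only without inactive replicate 2 among the 4 omissions.

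Of 305 measured zinc finger genes of the ZNF series 12 rose and 1 fell, against 253 and 67 of all 14232 genes, and the median was 0.04 (-0.01 to 0.08). ZNF804A rose by 0.84 ± 0.13 (limma, adjusted p = 0.00818), and ZNF75A by 1.25 ± 0.20 (adjusted p = 0.0102), while a second ZNF75A probe set gave 0.30 (adjusted p = 0.855). ZNF827 fell by 0.78 (adjusted p = 0.0155). The list's calls came to 1 higher and 1 lower without inactive replicate 1, and to none higher and 1 lower without inhibitor replicate 2. Of 220 olfactory receptor genes OR2B6 was the 1 call (median -0.10, -0.16 to -0.06) and of 21 taste receptor genes TAS2R19 was (median 0.16, 0.04 to 0.54). TAS2R50, which lies in the same cluster, differed by 2.04 with inactive arrays at 3.06 and 1.59 (adjusted p = 0.142).

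**Figure D4:**
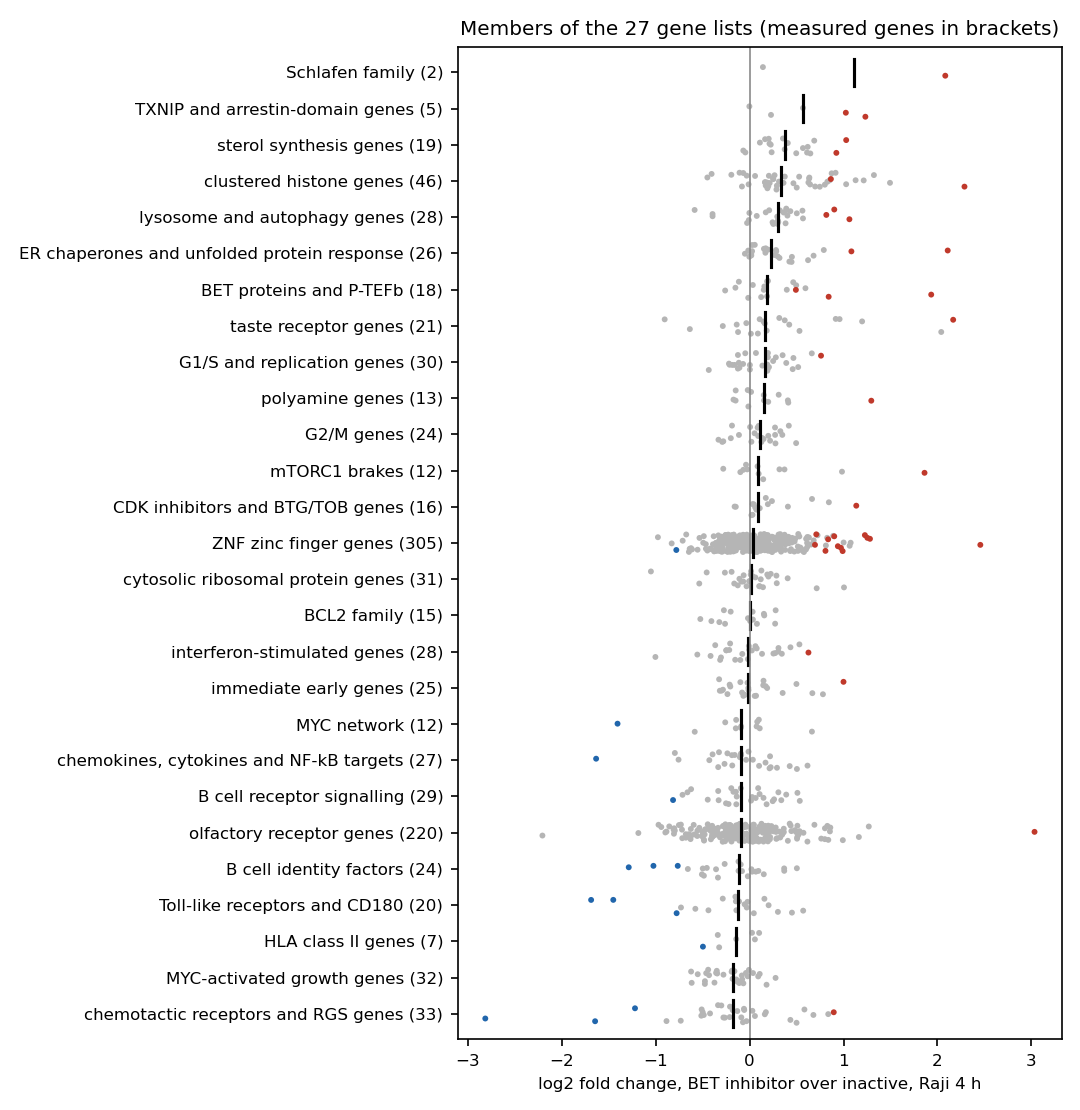
Difference between inhibitor and inactive form in Raji at 4 h (log2 fold change, horizontal axis) for every measured member of the 27 gene lists. Each point is a gene, red if called higher, blue if called lower and grey if neither, and the black bar is the median of the list; medians run from -0.18 in chemotactic receptors and RGS genes to 0.57 in the TXNIP family among lists of 5 or more genes, and the 2 Schlafen genes have 1.11.

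The 8 h arrays of Raji share no array with the 4 h comparison. At 8 h, 414 probe sets were called (1.88%), 182 higher (0.827%) and 232 lower (1.05%). Of the 316 rises at 4 h, 99 were also called higher at 8 h (31.3% of the 316 and 54.4% of the 182), and 301 (95.3%) had the same sign, against 49.9% of all probe sets. Of the 75 falls, 52 were also called lower at 8 h (69.3% of the 75 and 22.4% of the 232). The median of the 316 was 0.90 at 4 h and 0.56 at 8 h, and that of the 75 was -0.97 and -0.89. The 4 h values chose both sets, so a smaller median at 8 h is not a test of change. When the response at 8 h was tested against that at 4 h, limma called 0 probe sets (0%), with 1257 at an unadjusted p under 0.05, and 5 after quantile normalization.

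Among named genes, MYC differed by -1.40 at both times and HEXIM1 by 1.93 at 4 h and 1.90 at 8 h. PTAFR differed by -3.23 at 8 h (limma, adjusted p = 0.00992), CD180 by -1.82 (adjusted p = 0.000725) and PRDM1 by -1.43 (adjusted p = 0.000894). OR2B6 and H2BC11 were called again, at 2.24 (adjusted p = 0.0452) and 2.30 (adjusted p = 0.00497). Others called at 4 h were near 0 at 8 h: TAS2R19 at -0.01 (adjusted p = 0.997), ZNF75A at 0.06 (adjusted p = 0.955), CCNE1 at 0.04 (adjusted p = 0.967) and EGR1 at 0.16 (adjusted p = 0.808). For none of these did the difference between times pass the test.

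In LP-1 at 4 h, 502 probe sets were called (2.28%), 83 higher (0.377%) and 419 lower (1.9%), and those arrays are not shared with Raji either. Of the 316 Raji rises 30 were also called higher in LP-1 (9.49% of the 316 and 36.1% of the 83), and 3 were called lower. Of the 75 falls 23 were called lower (30.7% of the 75 and 5.49% of the 419). The same sign in LP-1 was seen for 68% of the rises, against 44.9% of all probe sets. For the falls it was 76%, against 55.1%. MYC fell in LP-1 by 2.30 (limma, adjusted p = 5.25e-05), and the difference of the 2 responses did not pass the test (0.90 ± 0.22, adjusted p = 0.10). HEXIM1 rose in LP-1 by 1.04 (adjusted p = 0.00269), OR2B6 by 3.09 (adjusted p = 0.00832), H2BC11 by 1.85 (adjusted p = 0.0108) and TXNIP by 1.09 (adjusted p = 0.00552). CD180, TLR10, PRDM1 and BLNK, all called lower in Raji, were not called in LP-1 (-0.43, -0.22, -0.15 and -0.02). For none of these 4 did the difference between lines pass the test (limma, adjusted p 0.0775, 0.0879, 0.0694 and 0.162). TLR10 lay low in LP-1, at 3.08 to 3.46 on its 4 arrays. CD180 lay at 4.62 to 5.37 and BLNK at 5.15 to 5.59 on those arrays. The inactive Raji arrays stood at 8.02 and 8.16 for CD180 and at 8.97 and 8.91 for BLNK.

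The test of the difference between lines called 25 probe sets (0.114%). The difference, Raji minus LP-1, was positive for 24 (0.109%) and negative for 1 (0.00454%). A positive one can come from a rise in Raji, a fall in LP-1 or both. IL12A, for example, differed by 0.10 in Raji and by -1.51 in LP-1. Of the 25 probe sets 10 were among the 316 Raji rises and 0 among the 75 falls. SESN3 was among them: its rise was 1.86 in Raji and 0.39 in LP-1 (adjusted p = 0.267), a difference of 1.47 (limma, adjusted p = 0.0363). NFIL3, a basic leucine zipper repressor, rose by 1.25 in Raji and fell by 1.38 in LP-1, a difference of 2.63 (adjusted p = 0.0168). CA13, a carbonic anhydrase, rose by 1.12 in Raji and differed by -0.76 in LP-1 (adjusted p = 0.0602), a difference of 1.89 (adjusted p = 0.0332). The count of 25 ran from 0 without LP-1 inactive replicate 2 to 484 without LP-1 inhibitor replicate 2.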

How the data were processed

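RNA from 20 cultures was measured on Affymetrix exon arrays. Per the submitters' processing notes, the authors summarised the scans with RMA in Affymetrix Expression Console on hg19, with no versions given, and deposited log2 expression values, 1 for each transcript-level probe set. The RMA method corrects background, equalises probe distributions and shrinks differences of dim probes. Symbols came from the platform table: 14432 of 22011 probe sets had 1 symbol, 2408 several and 5171 none, and 14404 were matched by Entrez identifier to RefSeq on GRCh38.p14. Those lacking a single symbol were counted, not named.

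A linear model, run in limma 3.58.1 (R 4.3.3), gave each of the 10 groups its own mean over all 20 arrays (10 residual degrees of freedom, prior 2.59), so the spread of each probe set is pooled over both lines. Tests were two-sided, p-values were adjusted by Benjamini-Hochberg over the whole table, and the script was tested on simulated data. The p-values measure the spread between 2 cultures per group. Where a setting left 1 array in a group, that array was assumed to vary like the others. Intervals cover 95%.

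The comparison, gene lists and marker lists were chosen with earlier results of these data known. Named genes were MYC, HEXIM1 and BRD2, the 15 largest called rises and falls whose arrays did not overlap the inactive ones, up to 3 members with the smallest p of each of 27 lists, and, in the tests of lines and of times against each other, the 6 largest called in either direction. Other called list members were named to complete counts, and BRD3, HEXIM2, TLR6, TLR7, LY86, RGS2 and ZNF827 after their values were seen. A gene with several probe sets entered lists by the one with the highest mean. Promoters came from RefSeq's table. Replicate numbers are shared by all groups; same-numbered inhibitor and inactive arrays of Raji at 4 h did not deviate together (r = -0.000282), so no block was used. Other settings concerned the arrays fitted, the scale, low values, the variance model, array weights, the block and single arrays left out.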

Additional observations from a re-analysis of the deposited data

Results flagged for a closer look

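The genes below had a response at 4 h that differed between Raji and LP-1 in the limma test of that difference (Raji minus LP-1, adjusted over 22011 probe sets). For NFIL3 the difference was 2.63, for RGL1 2.26, for TUBD1 2.22 and for CA13 1.89. LRP2BP had 1.67 and IL12A 1.61, and ATF3, a stress-induced transcription factor and the 1 gene with the opposite sign, had -1.05. For SESN3 it was 1.47 and for ENAM, an enamel gene beside AMBN on chromosome 4, 1.37. Adjusted p ran from 0.0062 for TUBD1 to 0.0461 for ATF3.

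In Raji alone, NFIL3, CA13, SESN3 and ENAM were called higher, ENAM by 1.20 (adjusted p = 0.00399). RGL1 (0.80, adjusted p = 0.0614), TUBD1 (0.46), LRP2BP (0.57), IL12A (0.10) and ATF3 (-0.28) were not called in Raji. For IL12A, TUBD1, RGL1 and LRP2BP the called change was the fall in LP-1: IL12A fell there by 1.51 (limma, adjusted p = 0.000928) and TUBD1 by 1.77 (adjusted p = 0.000321). All of these except ENAM, which was not part of that check, lost the call for the difference without at least 1 array, with a highest adjusted p between 0.0742 (TUBD1) and 0.199 (ATF3).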

How the results depend on the processing

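The Raji 4 h count of 391 moved to 49 on the Raji arrays alone and to 0 on the 4 arrays alone, and ran from 27 to 154 without 1 of its 4 arrays. It stayed within 1.5 times under the other settings: 314 after centring, 454 after quantile normalization, 560 without the dimmest probe sets, 284 with the replicate number as a block and 277 with untreated arrays in place of inactive ones. Of the 54 named genes called, 45 stayed called with the replicate block, 50 after centring and 53 after quantile normalization. On the Raji arrays alone 21 did. All kept their direction wherever they were fitted. The replicate block and the Raji arrays alone leave the difference of means unchanged, so direction could not change there. The difference between lines (25) gave 0 on its own arrays, 4 after centring, 16 after quantile normalization, 104 without the dimmest probe sets, 46 with an intensity trend, 7 with array weights and 7 with the replicate block. Without single arrays it ran from 0 to 484. The difference between times (0) gave 5 after quantile normalization and 0 to 2 without single arrays, the 2 being without Raji inactive replicate 2. Inactive over untreated gave 0 in every setting run. Some settings fitted fewer arrays or probe sets, and the cause of these shifts was not tested. Probe sets near background limit what can be seen in low genes.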

Other observations

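The genes named here were chosen singly after their values were seen and stand for no group. Whether their calls, and those of the single falls below, held under other settings was not followed gene by gene. Of all 391 calls, 47 stayed on the Raji arrays alone. POLR2A, the large subunit of RNA polymerase II, was at 8.25 and 8.28 with the inactive form, at 9.56 and 9.59 with the inhibitor and at 8.35 and 8.32 untreated. The inhibitor arrays stood apart from both other groups, a rise of 1.31 ± 0.13 (SE; limma, adjusted p = 0.000878). At 8 h POLR2A differed by 1.27 (adjusted p = 0.000894) and in LP-1 by 0.69 (adjusted p = 0.0183). CTR9, a subunit of the elongation complex PAF1, rose by 0.85 (adjusted p = 0.0147). TAF12, a subunit of TFIID, rose by 1.05 (adjusted p = 0.0401), MED31, a Mediator subunit, by 0.96 (adjusted p = 0.0368) and CCNL1, a cyclin linked to splicing, by 0.73 (adjusted p = 0.0273). SIRT1, a deacetylase, rose by 0.99 (adjusted p = 0.00475) and was called in LP-1 as well (0.82, adjusted p = 0.00832).

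Single genes that fell, also picked after their values were seen, included CD48, ARHGAP25 and NSD1. CD48 was at 9.04 and 9.79 with the inactive form and at 8.27 and 8.44 with the inhibitor, a difference of -1.06 (limma, adjusted p = 0.0147). SLAMF1, its neighbour on chromosome 1 and a member of the same family of receptors, also had -1.06 (adjusted p = 0.04). HAVCR2 (TIM-3) had -1.04 (adjusted p = 0.0147) and FCRL3, a receptor-like gene of B cells, had -0.80 (adjusted p = 0.0138). ARHGAP25 had -1.17 (adjusted p = 0.00399) and ZMYND8, a reader of histone marks, had -0.97 (adjusted p = 0.00675), and both were also called lower in LP-1, at -0.96 and -0.95. NSD1, a histone methyltransferase, had -0.87 (adjusted p = 0.0454), while CD160, another lymphocyte receptor, rose by 0.96 (adjusted p = 0.0367).

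With 14205 measured genes placed in order along the RefSeq annotation, 5 pairs of adjacent genes were both called higher and 3 pairs were both called lower. The pairs that fell were SLAMF1 and CD48, DTX3L and PARP15, and TLR10 and TLR1. AMBN and ENAM, both enamel genes, were 1 of the pairs that rose, and so were RABGAP1 and GPR21. Genes were ordered by start position, and overlap between the genes of a pair was not examined. How many such pairs unrelated genes would give was not tested.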
